A study of Mus musculus with 2 samples.

Results

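The core of the BAF (SWI/SNF) chromatin remodeling complex was followed in cultures that were being induced toward osteoclasts (OCs). The 10 genes are the alternative ATPases Smarca2 and Smarca4, the scaffold genes Smarcc1 and Smarcc2, the Smarcd1, Smarcd2 and Smarcd3 family, and Smarcb1, Smarce1 and Actl6a. They were chosen by symbol, as the ATPase and core subunits, and all 10 were found among the 32544 genes of each count matrix. BAF complexes use the energy of ATP hydrolysis to slide or evict nucleosomes. A complex carries 1 ATPase, SMARCA4 (BRG1) or SMARCA2 (BRM), on a shared core, and several positions of that core can be filled by products of related genes, the paralogs. ARID1A, the product of the deleted gene, is a subunit of the canonical form of the complex. How the products of the 10 genes are divided among the forms of the complex was not examined here.

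Murine bone marrow-derived monocytes (BMDMs) were cultured with 50 ng/ml M-CSF, which keeps myeloid cells alive and dividing, and 100 ng/ml RANKL, the inducer of OCs. According to the methods of the study, cells were taken 24 h after RANKL from mice of 4 to 6 weeks, and transcripts were counted by single-cell mRNA sequencing. Group 1 was labelled CONTROL, with no further description of its alleles, and the other was LysM-Cre;Arid1afl/fl, in which Cre is driven by the lysozyme M promoter of the myeloid lineage and deletes floxed internal exons of Arid1a. Each group is 1 library, so no difference below has a replicate check, and how many mice were pooled was not stated. After filtering, 6269 control and 5663 mutant cells remained, with medians of 23978 and 21734 UMIs (unique molecular identifiers, one for each captured mRNA molecule).

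Levels are UMIs summed over cells, per 1000000 UMIs of the same cells (CPM). The 3′ kit counts each transcript once at its end, so a level is a number of molecules and no gene length is divided out. Parentheses hold 95% intervals that cover counting error only. PCR copies were already collapsed into UMIs. Arid1a itself had 51.9 CPM (50.8 to 53.0) in the control library and 20.4 CPM (19.7 to 21.2) in the mutant library. Reads at the 3′ end do not test whether the floxed exons were lost.

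Promoters are shown for the ATPase and Smarcc pairs, because the members of each pair differed in opposite directions between the libraries. The sequences are from RefSeq (GRCm38.p6) and run 5′ to 3′ on the strand of the gene, from 250 bases before to 50 bases after the start site. Capitals mark matches on either strand to GGGCGG (the GC box), CCGGAAG (ETS-like), CGCATGCG (NRF1-like), TTTNNCGC (E2F-like), TGANTCA (AP-1-like) or GAAANNGAA (interferon-response-like).
Smarca2 promoter (chr19:26604910-26605209, plus strand): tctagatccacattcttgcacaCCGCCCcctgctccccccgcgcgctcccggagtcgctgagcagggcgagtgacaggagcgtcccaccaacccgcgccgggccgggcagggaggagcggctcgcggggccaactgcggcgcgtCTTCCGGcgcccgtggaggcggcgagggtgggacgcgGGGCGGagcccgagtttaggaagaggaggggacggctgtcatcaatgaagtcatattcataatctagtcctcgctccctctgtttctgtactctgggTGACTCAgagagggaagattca
Smarca4 promoter (chr9:21615919-21616218, plus strand): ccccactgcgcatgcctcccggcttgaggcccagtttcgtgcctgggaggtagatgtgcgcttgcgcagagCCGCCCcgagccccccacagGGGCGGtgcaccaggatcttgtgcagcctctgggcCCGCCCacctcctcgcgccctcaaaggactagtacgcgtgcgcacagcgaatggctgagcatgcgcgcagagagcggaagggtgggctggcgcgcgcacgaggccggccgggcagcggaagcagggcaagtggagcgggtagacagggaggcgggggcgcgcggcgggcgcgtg
Smarcc1 promoter (chr9:110131774-110132073, plus strand): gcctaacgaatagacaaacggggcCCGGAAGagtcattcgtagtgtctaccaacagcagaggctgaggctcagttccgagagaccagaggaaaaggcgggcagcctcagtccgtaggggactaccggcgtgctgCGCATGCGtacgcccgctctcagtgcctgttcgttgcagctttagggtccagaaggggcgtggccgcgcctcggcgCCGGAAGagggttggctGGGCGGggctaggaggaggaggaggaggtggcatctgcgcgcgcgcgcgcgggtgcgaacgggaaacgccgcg
Smarcc2 promoter (chr10:128458986-128459285, plus strand): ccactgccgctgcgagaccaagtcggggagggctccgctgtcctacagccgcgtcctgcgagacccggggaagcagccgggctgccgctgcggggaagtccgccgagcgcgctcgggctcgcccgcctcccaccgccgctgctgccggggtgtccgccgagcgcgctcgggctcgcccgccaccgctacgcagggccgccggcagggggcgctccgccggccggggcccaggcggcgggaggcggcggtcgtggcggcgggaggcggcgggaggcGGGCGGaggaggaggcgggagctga

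These letters differ between the members of a pair. Smarcc1 held 2 ETS-like matches and 1 NRF1-like match, which were found in 8.86% and 1.87% of 32841 promoters of the same length, while Smarcc2 held neither. Smarca2 held 1 ETS-like and 1 AP-1-like match, the latter present in 7.81% of promoters, and Smarca4 held neither. The GC box, present in 35.7% of promoters, occurred in each of the 4, with 3 matches in Smarca4. No E2F-like match (5.17% of promoters) and no interferon-response-like match (8.56%) was found in these windows. Smarcc2 was the richest in CpG, with 48 in 300 bases against 33 for Smarcc1, 33 for Smarca4 and 29 for Smarca2. The median of the 32841 promoters was 7, so these 4 windows are all CpG-rich. The GC box, ETS-like, NRF1-like and E2F-like letters each hold a CG, and shares among promoters as rich in CpG were not computed. A match is a match of letters, and binding was not measured here.

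The following positions are on GRCm39. Smarca4 is at chr9:21527398-21615526 and Smarcc1 at chr9:109946776-110069252, both on the plus strand. Smarca2 is at chr19:26582450-26755722 and Smarcc2 at chr10:128294424-128326456, also on the plus strand. The 3′ ends of Smarcc2, Smarcd2, Actl6a and Smarcd3 overlap protein-coding genes of the opposite strand, namely Myl6, Psmc5, Mrpl47 and Chpf2. The sources do not state whether counting used the strand, so these members are less certain.

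The core was expressed at 507 CPM in the control and 462 CPM in the mutant library, summed over the 10 genes. Smarca4 was the most abundant member in both, with 114 CPM (112 to 115) in control cells and, in mutant cells, 95.8 CPM (94.1 to 97.5). Smarcc1 followed with 91.8 CPM (90.4 to 93.3) and 71.1 CPM (69.7 to 72.6). Smarce1, which encodes an HMG-box subunit, had 74.2 CPM (72.9 to 75.6) and 67.4 CPM (66.0 to 68.8). Actl6a, the gene of an actin-related subunit, had 73.2 CPM (71.9 to 74.5) and 58.0 CPM (56.7 to 59.3). In the control library Smarce1 and Actl6a did not differ beyond counting error.

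In the middle of the range stood Smarcc2, with 44.5 CPM (43.5 to 45.5) in control cells and, in mutant cells, 56.6 CPM (55.4 to 57.9). Among mutant cells its interval overlapped with that of Actl6a. Smarcb1, which encodes the SNF5 core subunit, had 41.4 CPM (40.4 to 42.4) and 42.9 CPM (41.8 to 44.0). The Smarcd genes encode alternative BAF60 subunits. Smarcd2 had 29.1 CPM (28.2 to 29.9) and 29.2 CPM (28.3 to 30.1), and Smarcd1 had 27.3 CPM (26.5 to 28.1) and 24.6 CPM (23.8 to 25.5). Smarca2 was the lowest of the genes that were readily detected, at 12.3 CPM (11.8 to 12.9) and 16.4 CPM (15.7 to 17.1).

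Smarcd3, whose product is best known from heart and muscle, was close to the limit of detection. It had 8 UMIs among 6269 control cells (0.0489 CPM, 0.0211 to 0.0963) and 6 UMIs among 5663 mutant cells (0.0456 CPM, 0.0167 to 0.0993). The level of Smarca2, the next lowest, was 252 times as high in the control library, a ratio that rests on these few UMIs. No direction was detectable for Smarcd3 at this depth, and it is left out of the ratios below.

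**Figure D1:**
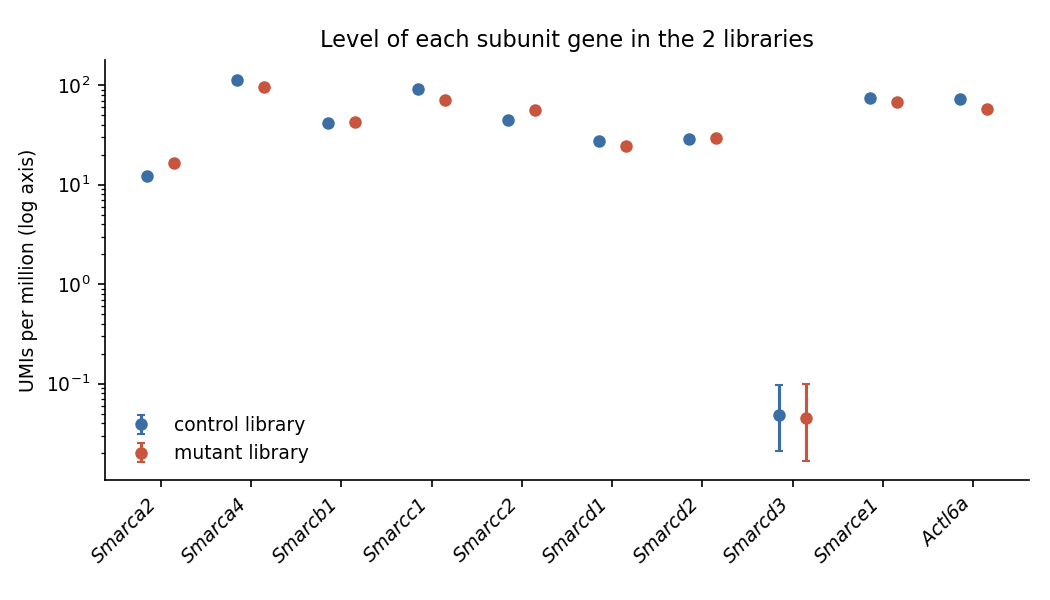
Level of each of the 10 genes in CPM (log axis) in the control (blue) and mutant (red) library, with 95% Poisson intervals, which are smaller than the points for all but Smarcd3. Smarca2 and Smarcc2 are higher and Smarca4, Smarcc1 and Actl6a lower in the mutant library, and Smarcd3 lies under 0.1 CPM in both.

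Whether the loss of Arid1a came with another level of the core genes was asked first over all cells. Genes that averaged 5 CPM or more were tested, and one was counted as higher or lower when its log2 ratio passed 0.36 in that direction. Of the 9 members above that level, 1 was higher past this size (Smarca2), beside 23.5% of 8650 genes, and 1 was lower (Smarcc1), beside 14.2%. A count of 1 among 9 members cannot be told from these shares of all genes. Their median log2 ratio was -0.14, against 0.052 for all genes tested.

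The direction differed within each pair of paralogs. Smarca2 had a log2 ratio of 0.41 (0.32 to 0.50), whereas Smarca4 had -0.25 (-0.28 to -0.21). Smarcc2 had 0.35 (0.30 to 0.40), just inside that limit at 1.27-fold, whereas Smarcc1 had -0.37 (-0.41 to -0.33). Actl6a was at -0.34 (-0.38 to -0.29), also just inside. Smarcd1 and Smarce1 were lower by less, at -0.15 (-0.21 to -0.082) and -0.14 (-0.18 to -0.099).

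Smarcb1 and Smarcd2 were close to 0, at 0.052 (0.00091 to 0.10) and 0.0070 (-0.055 to 0.069). Both turned negative with TMM factors, with median-of-ratios factors and with totals that leave out mitochondrial and ribosomal protein genes, which shifted all genes by -0.063, -0.090 and -0.11 (log2). Under these scalings 19.98%, 18.6% and 17.7% of genes were higher past 0.36 and 18.2%, 19.8% and 21.0% lower, and 0 members were higher while Smarcc1 and Actl6a were lower. The directions of Smarca2, Smarcc2, Smarca4, Smarcc1, Smarcd1, Smarce1 and Actl6a were the same under all 9 alternatives.

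A share within a paralog group does not depend on the scaling of a library. Smarca2 made up 9.80% (9.40 to 10.2%) of the ATPase UMIs in the control and 14.6% (14.1 to 15.2%) in the mutant library, a difference of 4.82 percentage points (4.12 to 5.53). Smarcc1 made up 67.4% (66.8 to 68.0%) of the Smarcc UMIs in the control and 55.7% (54.9 to 56.4%) in the mutant library, a difference of -11.7 points (-12.7 to -10.7). Smarcd2 made up 51.5% (50.5 to 52.6%) and 54.2% (53.0 to 55.4%) of the Smarcd UMIs, a difference of 2.66 points (1.11 to 4.22). Smarcd3 was 0.0867% and 0.0847% of that group. Over all cells the mixture was thus further toward Smarca2, Smarcc2 and, by less, Smarcd2 in the mutant library. Within each of the 4 states described next, the interval for Smarcd2 included 0, with differences of 1.51 points (-0.66 to 3.67) in the neither, 2.36 points (-0.13 to 4.84) in the cycling, 4.46 points (-3.90 to 12.8) in the osteoclast state and 0.56 points (-11.8 to 13.1) in cells of both.

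Cells were then divided by their transcripts, since the libraries differ in their mixture of cells. Each cell was thinned to 5000 UMIs. Cycling cells carried 3 or more UMIs summed over Cdk1, Aurka, Top2a and Mki67, genes of dividing cells. Osteoclast-transcript cells carried 3 or more UMIs summed over Dcstamp, a gene of cell fusion, and the bone resorption genes Acp5, Ctsk and Mmp9. None of the 10 members is in a gate. In the control library 3374 cells were in neither state, 2154 were cycling only, 328 osteoclast only and 245 in both. The mutant library had 3388, 1731, 145 and 48 cells. In the osteoclast-only state the 4 gate genes summed to 1650 CPM in control and 824 CPM in mutant cells, so the same gate holds cells with less of these transcripts in the mutant library. With Acp5 left out of the gate, 219 control but only 37 mutant cells were osteoclast only. The mutant state thus rested more on Acp5, and a ratio between the libraries within it compares cells that are not alike in these transcripts. A gate is a range and not a cell type: 126 control and 96 mutant cells lay at exactly 3 osteoclast UMIs, and 262 and 238 lay just outside at 2.

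The ATPase pair had the same arrangement in every state. The share of Smarca2 in control cells was 9.92% in the neither state, 10.2% in the cycling state, 7.34% in the osteoclast state and 8.39% in cells of both. The mutant shares were 14.8%, 14.6%, 12.0% and 12.1%. Each mutant value was higher, by 4.91 points (3.94 to 5.89), 4.40 points (3.26 to 5.55), 4.68 points (1.31 to 8.46) and 3.69 points (-0.75 to 9.13). Only in cells of both states, of which the mutant library had 48, did the interval include 0. The value for the osteoclast state turned to -2.54 points when cells were thinned to 2000 UMIs, which left 53 mutant cells in it.

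The Smarcc pair differed most between libraries. The share of Smarcc1 was 64.2% in control cells of the neither state, 69.1% in cycling, 72.5% in osteoclast and 72.1% in cells of both states. In mutant cells it was 54.0%, 57.6%, 57.6% and 59.3%. The mutant values were lower, with differences of -10.2 points (-11.6 to -8.76), -11.5 points (-12.95 to -9.995), -14.95 points (-20.3 to -9.66) and -12.7 points (-19.7 to -5.99). The highest mutant share, 59.3%, lay under the lowest control share, 64.2%. In the osteoclast state the difference shrank to -1.11 points with cells thinned to 2000 UMIs and to -6.72 points with at least 5 gate UMIs.

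Both members of the Smarcc pair took part in this. Smarcc1 had a mutant over control log2 ratio of -0.26 (-0.32 to -0.21) in the neither state, -0.37 (-0.42 to -0.31) in the cycling state and -0.30 (-0.51 to -0.10) in the osteoclast state. For Smarcc2 the values were 0.35 (0.28 to 0.41), 0.35 (0.28 to 0.42) and 0.66 (0.39 to 0.92). Actl6a was lower in the same states, at -0.31 (-0.37 to -0.25), -0.27 (-0.34 to -0.21) and -0.69 (-0.94 to -0.44).

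Other measures also differ between the libraries in these states. Among cells of the neither state, ribosomal protein genes took 21.5% of control and 16.8% of mutant UMIs. The monocytic markers Lgmn, Dab2, Csf1r and Adgre1 summed to 764 and 1751 CPM. The neutrophil markers S100a8, S100a9, Camp and Ngp summed to 182 and 1074 CPM. Stromal markers were near 0, at 8.74 and 4.81 CPM. The part of these differences in the levels of the members was not tested, except that leaving out the 17 control and 83 mutant neutrophil-marker cells, with 3 stromal-marker cells in each library, kept every share difference over all cells and in the first 3 states within its interval.

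**Figure D2:**
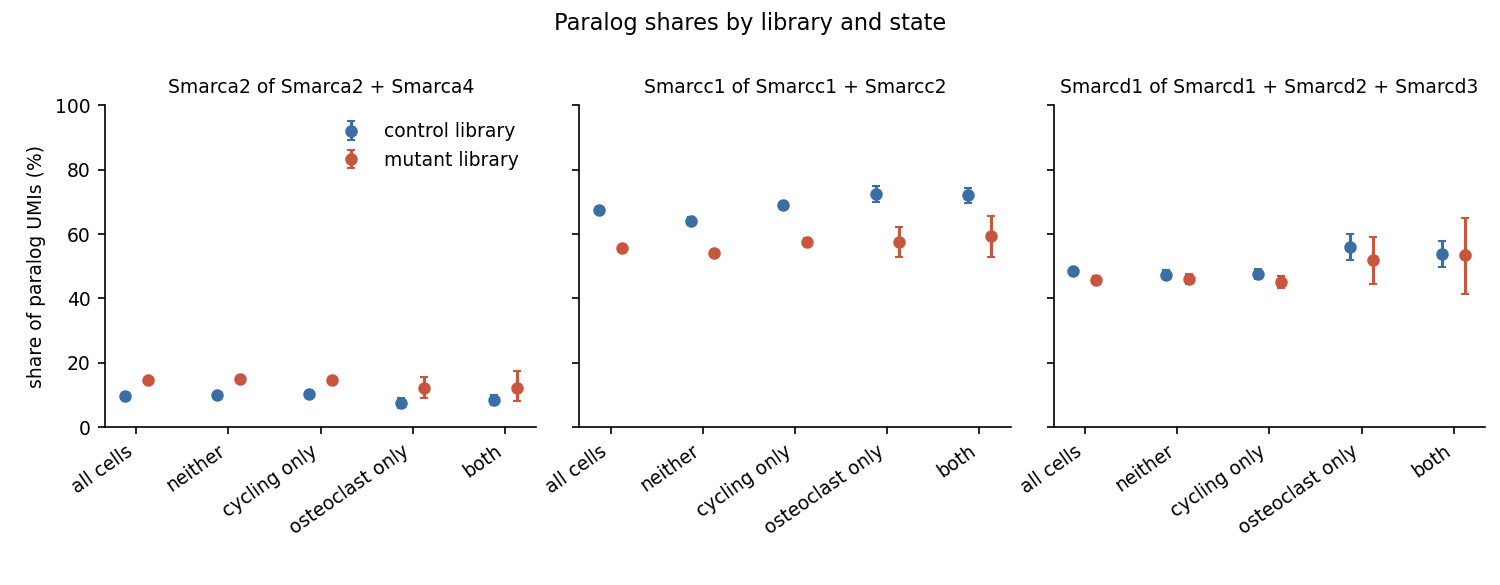
Share of a gene in the UMIs of its paralog group (percent, from 0 to 100) in all cells and in each of the 4 states, for the control (blue) and mutant (red) library, with 95% exact binomial intervals. Smarcc1 takes 64.2 to 72.5% in control states and 54.0 to 59.3% in mutant states, and Smarcd1 is at its highest control share in the osteoclast-only state.

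The cycling state was compared with the neither state within each library. Of 9 members, 1 was higher past 0.36 in control cells (12.2% of all genes tested) and 2 were in mutant cells (12.1%), and 0 were lower in either (2.91% and 3.05% of genes). With TMM factors these shares of all genes were 9.10% higher and 4.71% lower in control and 8.03% and 7.21% in mutant cells. All 9 ratios were above 0 in both libraries, but in mutant cells Smarca2 turned to -0.16 with the G2/M gate and -0.081 with thinning to 2000 UMIs, and Smarce1 to -0.0086 with TMM factors. The median was 0.21 in control and 0.19 in mutant cells, against 0.075 and 0.048 for all genes. By these medians a ratio above 0 was also the more common sign among all genes in both libraries.

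Smarcc1 had the highest ratio with this gate. It went from 74.1 CPM (72.2 to 75.9) in the neither state to 111 CPM (108 to 114) in cycling control cells, a log2 ratio of 0.58 (0.53 to 0.63). In mutant cells it went from 61.8 CPM (60.1 to 63.6) to 86.0 CPM (83.3 to 88.7), a ratio of 0.48 (0.42 to 0.54). The mutant ratio was smaller, with a difference of -0.11 on the log2 scale and an interval of counting error from -0.19 to -0.029. Actl6a came next, at 0.33 (0.28 to 0.39) in control cells and, in mutant cells, 0.37 (0.30 to 0.44). The remaining 7 members lay between 0.14 and 0.26 in control and between 0.10 and 0.26 in mutant cells, and in mutant cells the interval of Smarca2 included 0 (0.12, -0.012 to 0.25). With the G2/M gate in place of the cycling gate, Smarcc1 was no longer first, at 0.18 in control and 0.11 in mutant cells, against 0.22 and 0.24 for Actl6a. Under the other alternatives it remained the highest in both libraries.

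Because cycling is graded, levels were also read along the number of cycling UMIs, in cells outside the osteoclast gate. Smarcc1 was at 62.9 CPM in control cells with 0 such UMIs and at 84.7, 105, 117 and 123 CPM in cells with 1 to 2, 3 to 5, 6 to 10 and over 10. In mutant cells it was at 54.7, 70.1, 84.8, 86.2 and 90.4 CPM. It was thus higher in each successive group of both libraries, although the intervals of the last 2 groups overlapped in control and those of the last 3 in mutant cells. Smarcc2 was at 40.8 CPM in the first control group and 68.6 CPM in the last, and at 52.4 and 77.7 CPM in mutant cells.

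The phase of the cycle was examined with separate lists, Mcm3, Mcm5, Mcm6, Pcna, Tyms and Rrm2 for S phase and Ccnb1, Ccnb2, Cenpe, Cenpf, Plk1 and Hmmr for G2/M, at least 3 UMIs each. Control cells below both cut-offs had 64.9 CPM of Smarcc1. Those with S phase genes had 101 CPM (99.3 to 104), those with both lists 115 CPM (110 to 119), and those with G2/M genes alone 80.2 CPM (75.7 to 84.8). The mutant values were 50.1, 80.4, 86.6 and 60.4 CPM. Smarcc1 was therefore higher where S phase genes were present than in cells with G2/M genes alone. Within these 4 groups the share of Smarcc1 was lower in mutant cells, with differences of -13.9, -10.7, -11.2 and -11.6 points, and the share of Smarca2 was higher by 5.14, 5.62, 2.90 and 4.07 points, none with an interval that included 0.

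By the rule that compared all genes over the 8 groups of library and state, Smarcc1 was the only member above 5 CPM whose level spanned more than 2-fold, from 61.8 CPM in mutant cells of the neither state to 124 CPM in control cells of both states. Its span of 2.01-fold lay close to those of Smarcc2 (1.97-fold), Actl6a (1.89-fold) and Smarca2 (1.83-fold), which fell under the limit. The 3 genes most like Smarcc1 were Znhit3, Bckdk and Trim28, with Pearson r of 0.997, 0.993 and 0.993. This is a description over 8 points that share libraries.

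**Figure D3:**
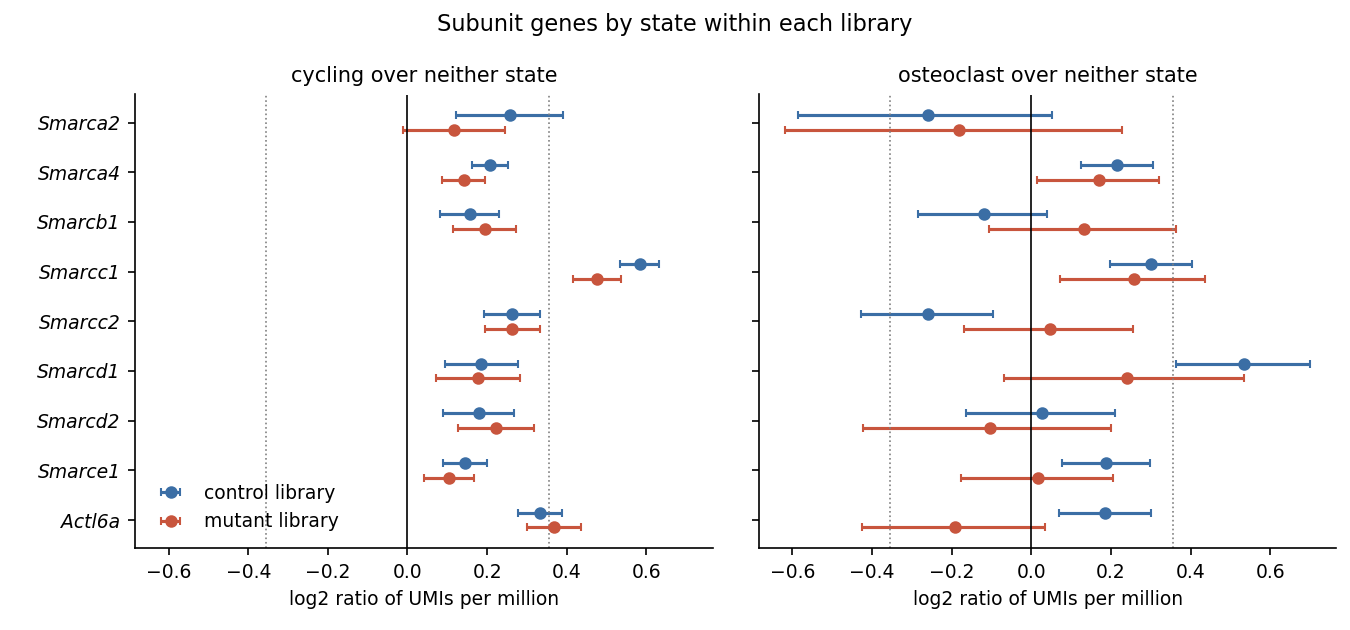
Log2 ratio of CPM between cells of the cycling-only state (left) or osteoclast-only state (right) and cells of neither state, for 9 genes in the control (blue) and mutant (red) library, with 95% counting intervals and dotted lines at the limit of 0.36. Smarcc1 is highest on the left in both libraries, and Smarcd1 is the only control gene past the line on the right.

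In the osteoclast-transcript state the members lay on both sides of 0. Of 9 members, 1 was higher past 0.36 in control cells (17.8% of genes tested) and 0 were in mutant cells (10.1%). None was lower past this size, beside 17.4% of genes in control and 10.2% in mutant cells. With TMM factors the mutant shares of all genes were 7.12% and 14.2%. With only 9 members, these counts cannot be told from the shares of all genes. With thinning to 2000 UMIs, 3 mutant members were higher, beside 24.8% of genes. The member medians were 0.19 and 0.047, against 0.060 and 0.020 for all genes. With 145 mutant cells in this state, the mutant intervals are wider than those of the control.

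Smarcd1 was the member past 0.36. It went from 24.7 CPM (23.6 to 25.8) in control cells of the neither state to 35.7 CPM (32.0 to 39.7) in osteoclast-only cells, a log2 ratio of 0.53 (0.36 to 0.70). Smarcd2 was at 27.4 CPM (26.3 to 28.5) and 27.9 CPM (24.6 to 31.5), a ratio of 0.026 (-0.16 to 0.21). The order of the 2 genes was thereby exchanged: Smarcd1 made up 47.4% of the Smarcd UMIs in the neither state and 56.0% (51.9 to 60.0%) in the osteoclast state, 8.61 points more (4.27 to 12.9). In cells of both states the share was 53.9% (49.8 to 58.0%), and in cycling-only cells it was 47.5%, as in the neither state.

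A graded view gave the same order in control cells. Smarcd1 was at 23.4, 29.2, 34.6, 35.8 and 37.8 CPM in cells with 0, 1 to 2, 3 to 5, 6 to 10 and over 10 osteoclast UMIs, while Smarcd2 stayed between 26.7 and 28.2 CPM. In mutant cells Smarcd1 was at 23.3, 23.6 and 26.997 CPM in the first 3 groups, and the last 2 held only 25 and 9 cells. The mutant osteoclast-only state had 27.6 CPM (22.4 to 33.7) of Smarcd1, a ratio of 0.24 (-0.068 to 0.53) over the neither state. The share of Smarcd1 there was 51.9% (44.5 to 59.2%), 5.97 points above the neither state (-1.56 to 13.4). Under the alternatives the log2 ratio lay between -0.093 (thinning to 10000 UMIs) and 0.59 (thinning to 2000 UMIs, 53 mutant cells). No difference from the neither state was detectable at this depth, which does not show that there was none. The mutant ratio differed from the control ratio by -0.29, with an interval that included 0 (-0.63 to 0.044). Against osteoclast-only control cells, mutant Smarcd1 had a log2 ratio of -0.37 (-0.71 to -0.042), whereas the interval for the difference in its share included 0 (-4.13 points, -12.5 to 4.24).

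Smarcc1 and Smarca4 were higher with osteoclast transcripts in both libraries. Smarcc1 had ratios of 0.30 (0.20 to 0.40) in control cells and, in mutant cells, 0.26 (0.072 to 0.44). Smarca4 had 0.22 (0.13 to 0.30) and 0.17 (0.015 to 0.32). The mutant value of Smarca4 lay between 0.028 (thinning to 10000 UMIs, 240 mutant cells) and 0.42 (thinning to 2000 UMIs, 53 mutant cells). In control cells their paralogs went the other way: Smarcc2 had -0.26 (-0.43 to -0.095), and Smarca2 had -0.26 with an interval that included 0 (-0.59 to 0.051). Against the neither state, the control share of Smarca2 differed by -2.59 points (-4.10 to -0.88) and that of Smarcc1 by 8.37 points (5.56 to 11.1). In mutant cells these differences had the same direction, at -2.82 points (-5.88 to 0.78) and 3.59 points (-1.21 to 8.29), with intervals that included 0. Relative to cells of neither state, osteoclast-transcript cells of the control library thus had more Smarca4 and Smarcc1 within their pairs, whereas both shares were lower in mutant than in control cells in every state, with an interval that included 0 for Smarca4 in cells of both states.

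Smarce1 was at 0.19 (0.077 to 0.30) in control cells and, in mutant cells, 0.017 (-0.18 to 0.21). Smarcb1 did not differ between the states beyond counting error, at -0.12 (-0.28 to 0.041) and 0.13 (-0.11 to 0.36). Actl6a had a positive ratio in control cells (0.19, 0.070 to 0.30) and a negative one in mutant cells (-0.19, -0.43 to 0.035). Osteoclast-only control cells had 26.2% ribosomal protein UMIs against 21.5% in the neither state, and leaving these genes and mitochondrial genes out of the totals brought Smarcc1 past 0.36 in control cells too, with 27.6% of all genes then higher and 13.5% lower. Monocytic markers were lower in the control osteoclast state, at 382 CPM against 764 CPM, and in the mutant one, at 1378 CPM against 1751 CPM. In mutant cells ribosomal protein genes took 17.6% of osteoclast-only UMIs, against 16.8% in the neither state. The part of these differences in the ratios was not tested. Myl6, which overlaps the 3′ end of Smarcc2, had -0.53 in the control and -0.11 in the mutant comparison, and Mrpl47, which overlaps Actl6a, had 0.67 and -0.11. Both neighbours differ in the same direction as the member in control cells, and in mutant cells Mrpl47 does so and Myl6 does not. For mutant over control in all cells, Myl6 had -0.018 beside 0.35 for Smarcc2, and Mrpl47 had -0.044 beside -0.34 for Actl6a. The part of these neighbours in the ratios was not tested.

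**Figure D4:**
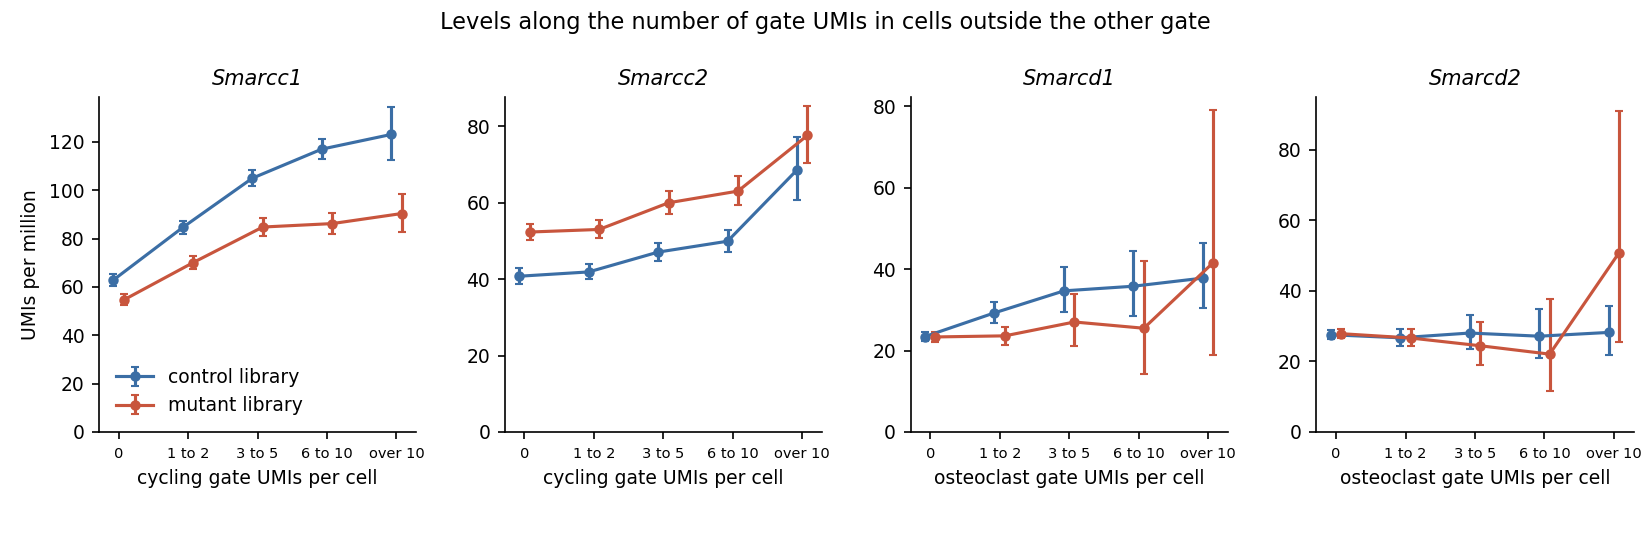
Levels (CPM, axis from 0) of Smarcc1 and Smarcc2 by the number of cycling gate UMIs per cell, and of Smarcd1 and Smarcd2 by the number of osteoclast gate UMIs, in the control (blue) and mutant (red) library, with 95% Poisson intervals. Smarcc1 is higher with more cycling UMIs, from 62.9 to 123 CPM in control cells, and control Smarcd1 goes from 23.4 to 37.8 CPM while control Smarcd2 stays between 26.7 and 28.2 CPM.

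At the level of single cells the members were sparse. With each cell thinned to 5000 UMIs, a Smarca4 UMI was seen in 41.4% (40.2 to 42.7%) of 6101 control cells and 36.9% (35.6 to 38.2%) of 5312 mutant cells. Without thinning the shares were 87.8% and 78.8%. Smarcc1 was seen in 34.7% (33.5 to 35.9%) and 27.9% (26.7 to 29.2%) at 5000 UMIs, and Smarcc2 in 20.4% (19.4 to 21.4%) and 23.6% (22.5 to 24.8%). Smarca2 was seen in 6.18% (5.59 to 6.81%) and 7.93% (7.21 to 8.68%). Smarcd3 was seen in 0 of 6101 control cells, with an upper limit of 0.0604%, and in 2 mutant cells. No cell type in these cultures is known to lack the other members, so no background share could be set beside them.

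A median of 2 of the 10 members was detected per cell at 5000 UMIs in each library. At 10000 UMIs it was 4 in control and 3 in mutant cells. Paralogs were detected in the same cells. At 10000 UMIs, Smarca2 was seen in 11.8% (10.8 to 12.9%) of control cells with a Smarca4 UMI and in 11.3% (9.88 to 12.8%) of those without. In mutant cells these shares were 14.2% (12.97 to 15.5%) and 15.2% (13.6 to 16.9%). Smarcc1 was seen in 57.0% (54.8 to 59.1%) of control cells with a Smarcc2 UMI and 54.2% (52.6 to 55.8%) without. In mutant cells the shares were 49.9% (47.7 to 52.0%) and 45.5% (43.7 to 47.4%). In none of these pairs was a gene seen less often, beyond counting error, in cells that had a UMI of its paralog.

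The members were also compared between cells with and without an Arid1a UMI at 5000 UMIs. In the control library 1331 cells had one and 4770 did not, and the median log2 ratio of the 9 members above 5 CPM was 0.082, beside 0.045 for all genes. In the mutant library 515 cells had one and 4797 did not, with a median of 0.034, beside 0.026. Smarcc2 was at 0.12 (0.045 to 0.20) in control cells and, in mutant cells, 0.13 (0.022 to 0.24). Mutant cells with an Arid1a UMI had 61.5 CPM of Smarcc2, which is above the 47.6 CPM of control cells with one, and 72.1 CPM of Smarcc1, which is below the 97.1 CPM of such control cells. The difference of the Smarcc pair between the libraries was thus also seen among cells in which an Arid1a molecule was counted. Reads at the 3′ end do not show whether such a molecule held the floxed exons. Arid1a was itself higher in cycling than in neither cells, at 0.48 in control and 0.30 in mutant cells. Smarcc2 was at 0.26 in both, and the part of cycling in this split was not tested.

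Other genes of the pathway are given for comparison. Of 19 further BAF subunit genes, 14 were above 5 CPM, of which 3 were higher and 2 lower past 0.36 in the mutant library, with a median of 0.11, beside 23.5% and 14.2% of all genes. They ranged from 0.89 for Bcl7a, which encodes an accessory subunit, to -1.35 for Arid1a itself. Of 16 ATPases of other remodelers, 15 were above 5 CPM, of which 2 were higher and 0 lower, with a median of -0.15, beside the same shares of all genes. The highest was Chd3 (14.2 CPM in control and 31.5 CPM in mutant cells, 1.15) and the lowest its paralog Chd4 (177 and 138 CPM, -0.36), which encode alternative ATPases of the NuRD complex.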

How the data were processed

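Single-cell mRNA sequencing with a 10x Genomics 3′ kit (v3.1) was performed on 1 control and 1 LysM-Cre;Arid1afl/fl library. Each deposited matrix holds unnormalised UMI counts for every gene in every barcode. Cell Ranger 6.1.0, named in the file headers, was the authors' counting tool, and GRCm39 is the genome in the submitters' processing notes. Aggregation is named in the methods, but whether it subsampled these counts was not stated.

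Cells with at least 500 genes and at most 10% mitochondrial UMIs were kept (186 control and 202 mutant barcodes removed). The libraries held 163618835 and 131469887 UMIs. They shared 7 barcode sequences. Doublets were kept; an alternative removed the highest scores (333 and 275 barcodes, numbers set by the barcode total), each scored by its share of simulated doublets among 50 nearest neighbours. For states and detection, each cell was thinned to 5000 UMIs, which left out 168 control and 351 mutant cells.

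With 1 library per group no test was made. UMIs were summed, scaled to CPM and given exact Poisson intervals. For log2 ratios the interval is exact, conditional on the total of both counts. Clopper-Pearson intervals were used for shares, and their differences combine these by squaring and adding. Differences of log2 ratios use a normal interval. All cover counting error at the 95% level. The functions were tested on simulated data. Python 3.11.15, numpy 2.4.6, scipy 1.17.1, pandas 2.3.3, scikit-learn 1.9.0 and R 4.3.3 were used, with edgeR 4.0.16 (TMM) and DESeq2 1.42.0 (size factors) for scaling alone.

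The members, gates, lists and rules were chosen with earlier results of these data known. All 10 members and Arid1a are named. From the lists of other BAF subunits and other remodeler ATPases, only the extremes are named, besides up to 3 most similar genes for members spanning over 2-fold. Positions are from GENCODE M39 (GRCm39; 31977 of 32544 identifiers matched), and promoters from RefSeq (GRCm38.p6), where 9 of 10 members had an entry. Alternatives were other scalings, filters, thinning depths, gates, cell weights, and removal of doublets or of neutrophil-marker and stromal-marker cells.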

Additional observations from a re-analysis of the deposited data

Results flagged for a closer look

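In the comparison of osteoclast-only cells with cells of neither state, 2 members had opposite signs in the 2 libraries, with an interval of the difference that left out 0. This rule was applied to the members alone, so no share of all genes can be set beside the count. Actl6a had a log2 ratio of 0.19 in control and -0.19 in mutant cells, so that the mutant ratio was lower by 0.38 (a difference of -0.38, from -0.63 to -0.12). Smarcc2 had -0.26 in control and 0.047 in mutant cells, a difference of 0.31 (0.042 to 0.57). Each library is a single sample and each mutant ratio taken alone had an interval that included 0. The difference between the libraries was therefore not tested, and its interval covers counting error only. Under the alternatives, the mutant ratio of Actl6a lay between -0.27 (TMM factors) and 0.24 (thinning to 2000 UMIs, 53 mutant cells). That of Smarcc2 lay between -0.40 (osteoclast gate without Acp5, 37 mutant cells) and 0.16 (thinning to 10000 UMIs).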

How the results depend on the processing

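With 1 library in each group, intervals cover counting error only, and no alternative replaces a replicate. The mutant osteoclast-only state (145 cells) limits its values most, and Smarcd3 gave no ratio. No paired analysis was possible because each group is 1 library. For values the change of which is given here, the cause was not tested unless the alternative itself has fewer cells or genes.

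Over all cells, the median log2 ratio of the members was -0.20 with TMM factors, -0.23 with median-of-ratios factors and -0.25 with totals that leave out mitochondrial and ribosomal protein genes, each with 0 members higher and 2 lower past 0.36. Smarcb1 became -0.011, -0.038 and -0.057 under these 3. With every cell counted alike, 2 members were higher and 0 lower (25.2% and 13.8% of all genes). When only genes averaging 20 CPM or more were kept, which leaves Smarca2 out, 0 were higher (21.9%).

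For cycling over neither cells, control members higher numbered 2 with thinning to 10000 UMIs (15.3% of all genes) and 0 with the G2/M gate (7.36%). Mutant members higher numbered 0 with thinning to 2000 UMIs and with the G2/M gate (11.2% of all genes in each), and 1 with at least 5 gate UMIs (12.5%), without Mki67 (11.6%) and with TMM factors (8.03%). The last also gave a median of 0.081 and -0.0086 for Smarce1. For osteoclast over neither cells, control members lower numbered 1 without Acp5 (18.4% of all genes), and higher 2 with totals that leave out mitochondrial and ribosomal protein genes (27.6%). Mutant members higher and lower numbered 3 and 2 with thinning to 2000 UMIs (24.8% and 20.7% of all genes) and 2 and 1 without Acp5 (23.6% and 19.5%), and 3 were higher with at least 5 gate UMIs (24.9%). These shares of all genes are above the 10.1% and 10.2% of the 145 cells, with 53, 37 and 54 mutant cells in the 3 settings.

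Shares moved mainly with thinning. At 2000 UMIs, the mutant Smarca2 share differed from the neither state by -2.29 points in cycling and -9.41 in osteoclast cells, and Smarcc1 by 1.87 (control cycling), 0.780 (mutant cycling) and 16.1 points (mutant osteoclast). Mutant minus control then gave 3.09 (Smarca2, cycling), -2.54 (Smarca2, osteoclast, the opposite direction) and -1.11 points (Smarcc1, osteoclast). At 10000 UMIs, Smarcc1 in cycling cells gave 6.67 (control) and 5.98 points (mutant), Smarcd2 in mutant osteoclast cells 2.999, and Smarcd2 mutant minus control -1.03 (neither) and 12.9 points (osteoclast). With at least 5 gate UMIs, Smarcc1 gave 3.42 (control cycling), 1.84 (mutant cycling) and 12.3 points (mutant osteoclast), and mutant minus control -6.72 points in osteoclast cells. Members seen in a smaller share of mutant cells, with an interval below 0, numbered 5 at 10000 UMIs and 7 without thinning, against 3 at 5000. Without thinning the libraries differ in depth, with medians of 23978 UMIs in control and 21734 in mutant cells. Detection was not computed for all genes, so these counts have no background.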

Other observations

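The few cells with at least 5% of their UMIs on neutrophil genes had another balance of the ATPases. In the mutant library 83 such cells had 41 UMIs of Smarca2 and 56 of Smarca4, which are 44.5 CPM (31.9 to 60.3) and 60.7 CPM (45.9 to 78.8). Smarca2 thus made up 42.3% (32.3 to 52.7%) of their ATPase UMIs, against 14.5% (13.9 to 15.04%) in the other mutant cells of at least 5000 UMIs. The share of Smarcc1 was 51.6% (40.9 to 62.3%) in these cells and 55.7% (54.9 to 56.5%) in the others, which did not differ beyond counting error. The control library had 17 such cells with 3 UMIs of Smarca2 and 7 of Smarca4, with an interval for the share from 6.67 to 65.2%. Without the neutrophil-marker and stromal-marker cells, the share of Smarca2 over all cells still differed between the libraries, by 4.66 percentage points.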
